A study of Mus musculus with 2 samples.

Results

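Known single-exon protein-coding transcripts are annotated messenger RNAs that hold their whole sequence in 1 exon. They were read in mouse adrenal gland as long cDNA molecules, and 423 of the 2812 annotated models of this kind (15.04%) had at least 1 read in either library. The members were all models that the authors classed as known, with 1 exon, whose gene and transcript are both annotated as protein-coding. They are 423 of the 22506 known models with a read. The members were split by the annotation of their gene: 302 belonged to 301 nuclear genes whose annotated transcripts all have 1 exon (intronless genes), 110 were single-exon forms of 109 genes that also have spliced transcripts, and 11 were encoded by mitochondrial DNA. The tissue was adrenal gland of wild-type C57BL/6J mice from The Jackson Laboratory, with no treatment named, in 1 group of 2 libraries numbered biological replicates 1 and 2. The libraries come from separate biosamples with 1 shared donor entry, a text field calls them male while the field for sex was not filled, and the age is unknown. There is no second condition, so the comparisons below set replicate 1 against replicate 2 and compare these libraries only; the spread between them may be technical. Genes of the steroid-producing cortex (Star, Cyp11a1, Cyp11b1, Cyp21a1, Hsd3b1) had 2487 to 15435 reads per library and genes of the catecholamine-producing medulla (Th, Dbh, Pnmt, Chga, Chgb) 87 to 7883, while the kidney markers Umod, Kap, Slc34a1 and Aqp2 had 0 reads in both. These genes differed between the libraries in either direction: in replicate 1 and replicate 2, Star was at 14093 and 28309 CPM (reads per 1000000 reads), Hsd3b1 at 11679 and 4561 CPM, Chgb at 3881 and 14458 CPM and Pnmt at 694 and 160 CPM. Their part in the results below was not tested, and in a bulk tissue fewer cells of a type and less RNA per cell cannot be told apart.

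Most mammalian genes are transcribed with introns that splicing removes. Intronless genes skip that step, and they include genes that are switched on quickly after a stimulus, many receptors and core histones, and retrogenes, which arose when a spliced messenger RNA was copied back into DNA and inserted elsewhere. A retrogene keeps the exon sequence of its source gene without the introns, so the spliced RNA of the source and the single-exon RNA of the copy can have the same letters. The adrenal cortex and medulla respond to hormones and nerve impulses, and transcription factors of the Jun and C/EBP families are part of such responses.

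The near-identity of such copies is shown first, since it bears on the values of several abundant members. The sequences are of GENCODE M21 transcripts on GRCm38, the assembly that the files call mm10, and are written from 5′ to 3′ in the direction of the transcript. The stretches of Rpl10-ps3 (chr9:50344722-50344781, minus strand), Rps27rt (chr9:114982563-114982622, minus strand) and Sap18b (chr8:95825573-95825632, plus strand) are 60 bases of 1 continuous coding exon. Capitals mark 5 bases on each side of the point at which the spliced gene of the same sequence (Rpl10, Rps27 and Sap18) joins 2 exons.
Rpl10-ps3: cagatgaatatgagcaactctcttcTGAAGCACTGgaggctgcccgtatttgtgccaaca
Rps27rt: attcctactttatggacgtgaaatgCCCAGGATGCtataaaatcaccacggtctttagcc
Sap18b: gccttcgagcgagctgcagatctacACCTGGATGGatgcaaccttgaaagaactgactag
At the marked points the spliced genes have introns of 271 bases (Rpl10), 148 bases (Rps27) and 2896 bases (Sap18).
The next pairs set a member beside its spliced gene, with the only coding base that differs in capitals. Rpl9-ps6 lies at chr19:32466266-32466306 (minus strand) and Gm2000 at chr1:156366174-156366214 (plus strand). The stretch of Rpl9 spans 2 exons between chr5:65389583-65390400 (minus strand) and that of Rpl35 lies in 1 exon at chr2:39004735-39004775 (minus strand).
Rpl9-ps6: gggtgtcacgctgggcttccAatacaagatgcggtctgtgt
Rpl9: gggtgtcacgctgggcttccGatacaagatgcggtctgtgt
Gm2000: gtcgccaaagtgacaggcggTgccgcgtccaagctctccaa
Rpl35: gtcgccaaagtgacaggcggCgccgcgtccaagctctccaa
Counted from the first coding base of the member, with its base first, these are the substitutions A266G and T117C.

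The members took 9694 of 848782 reads in replicate 1 (1.14%, 95% Clopper-Pearson interval 1.12 to 1.16) and 4742 of 545229 in replicate 2 (0.870%, 0.845 to 0.895), a mean of 1.01% ± 0.193 (SD, n = 2). Intronless genes took 7457 reads (0.879%) in replicate 1 and 3903 reads (0.716%) in replicate 2. The forms of spliced genes took 1444 reads (0.170%) in replicate 1 and 816 reads (0.1497%) in replicate 2, and the mitochondrial-encoded models 793 reads (0.0934%) in replicate 1 and 23 reads (0.00422%) in replicate 2. All of these shares were higher in replicate 1, and that of the mitochondrial-encoded models differed most, by 22.1-fold. Of the members, 360 were read in replicate 1, 299 in replicate 2 and 236 in both, and 96 had 1 read in all. A few models carried much of the total: the 10 most abundant held 41.5% of the members' reads in replicate 1 and 35.6% in replicate 2. A read is worth 1.18 CPM in replicate 1 and 1.83 CPM in replicate 2, and 1 read stands for 1 molecule, so CPM is not scaled by length. Intervals cover counting error only.

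**Figure D1:**
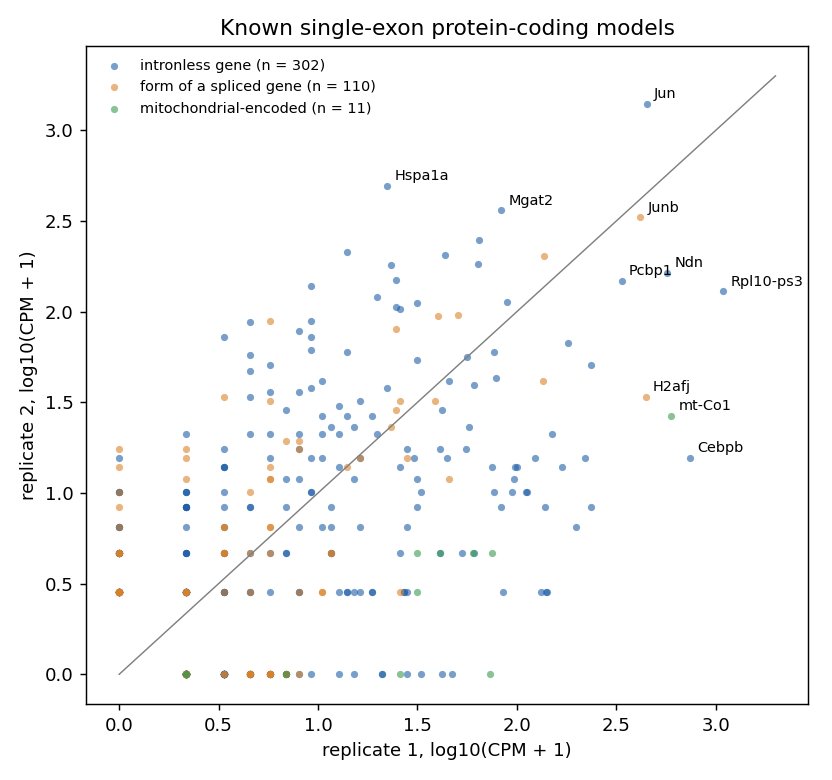
Level of each of the 423 members in replicate 1 (horizontal axis) and replicate 2 (vertical axis), as log10(CPM + 1), with intronless genes in blue, forms of spliced genes in orange and mitochondrial-encoded models in green; the line marks equal levels. Jun, Hspa1a and Mgat2 lie above the line, and Rpl10-ps3, Cebpb, Ndn, H2afj and mt-Co1 far below it.

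Single-exon models of large families known from sensory tissue and hair were nearly unread. Among 2738 nuclear genes with a single-exon coding model, 1277 are receptors for odours, pheromones, tastes and trace amines (Olfr, Vmn, Tas and Taar) and 1 of these, Olfr470, had a read of its single-exon model, 1 in replicate 1 and 0 in replicate 2. Of the 1277, 222 are intronless and the others also have spliced transcripts, whose reads are not part of these counts; in replicate 1 the intronless Tas2r135 had spliced reads only, 9 of them in 1 model of 4 exons. None of 57 keratin-associated protein genes, which build hair, and none of 17 interferon genes had a read of a known single-exon model. Of the other 1461 genes, 409 (28.0%) had a read of their single-exon model, and the families below are counted in the same way. All 6 frizzled receptors with a single-exon coding model were read, with 17 reads in replicate 1 and 40 reads in replicate 2 between them. Frizzled receptors bind Wnt ligands. Of the protocadherin beta genes, cell adhesion proteins of neurons, 13 of 22 were read (15 reads in replicate 1, 37 reads in replicate 2), and of the clustered histone genes 25 of 65 (301 reads in replicate 1, 55 reads in replicate 2). None of 6 Pou factors with a single-exon coding model had a read of it.

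The most abundant intronless gene by mean level was Jun, which encodes a subunit of the transcription factor AP-1 (chromosome 4, 95049034 to 95052222, minus strand). It had 381 reads (449 CPM) in replicate 1 and 765 reads (1403 CPM) in replicate 2, a mean of 926 ± 675 CPM (SD, n = 2). Cebpb, a transcription factor of the C/EBP family (chromosome 2, 167688915 to 167690418, plus strand), had 626 reads (738 CPM) in replicate 1 and 8 reads (14.7 CPM) in replicate 2. Cebpb was far higher in replicate 1, and Jun was lower there (adjusted p 7.8e-78), although its ratio changed sign once the trend with transcript length described below was removed.
Ndn, which encodes necdin and is expressed from the paternal copy (chromosome 7, 62346569 to 62350262), had 483 reads (569 CPM) in replicate 1 and 89 reads (163 CPM) in replicate 2. Hspa1a, the heat-inducible Hsp70 chaperone (chromosome 17, 34969190 to 34972156), had 18 reads (21.2 CPM) in replicate 1 and 269 reads (493 CPM) in replicate 2. Pcbp1, which binds C-rich RNA, had 285 reads (336 CPM) in replicate 1 and 80 reads (147 CPM) in replicate 2. Ndn and Pcbp1 were higher in replicate 1 and Hspa1a lower.
Mgat2, a Golgi enzyme that adds N-acetylglucosamine to N-glycans, had 70 reads (82.5 CPM) in replicate 1 and 197 reads (361 CPM) in replicate 2. Tspyl1, a relative of nucleosome assembly proteins, had 54 reads (63.6 CPM) in replicate 1 and 134 reads (246 CPM) in replicate 2. Irf2bpl, named for a relative that binds the interferon regulatory factor Irf2, had 36 reads (42.4 CPM) in replicate 1 and 112 reads (205 CPM) in replicate 2. All of these were lower in replicate 1, although without the length trend Tspyl1 changed sign (0.16) and Mgat2 and Irf2bpl no longer passed. With its RefSeq length in the trend Tspyl1 stayed negative (−0.14) but did not pass.
Ier2, an immediate early gene, had 152 reads (179 CPM) in replicate 1 and 36 reads (66.0 CPM) in replicate 2, so it was higher in replicate 1, but with a negative ratio (−0.59) without the length trend. Sephs2, which makes the selenium donor for selenoproteins, had 53 reads (62.4 CPM) in replicate 1 and 99 reads (182 CPM) in replicate 2, and was lower. The remaining 2 of the 12 leading genes were the ribosomal protein copies Rpl10-ps3 and Rps27rt, described below. Annotated exons of other genes lie on the opposite strand of Jun (Junos), Cebpb (Tmem189), Hspa1a (Gm20481), Pcbp1 (1600020E01Rik), Mgat2 (Gm49383) and Sephs2 (Gm44729). Whether the reads kept their strand is not given in the sources used here, so reads of such partners cannot be told apart by strand.

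**Figure D2:**
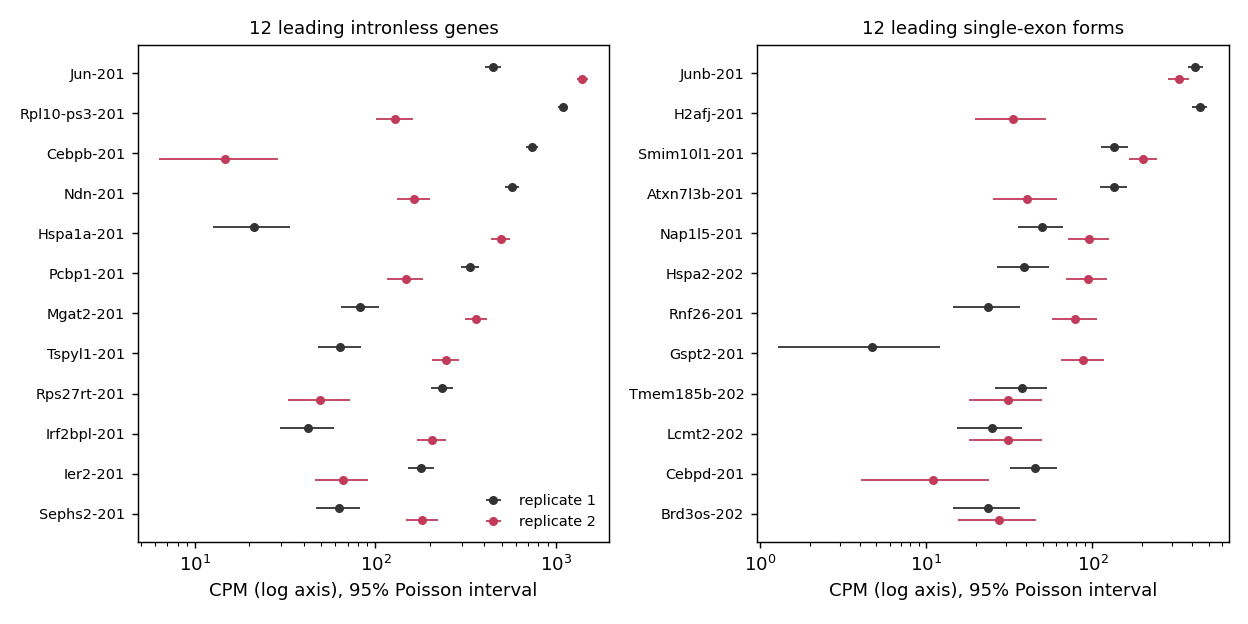
Levels of the 12 intronless genes and the 12 single-exon forms of highest mean level, in CPM on a log axis, with replicate 1 in black and replicate 2 in red; bars are 95% Poisson intervals. The intervals of the libraries do not overlap for any of the 12 intronless genes, while those of Junb, Tmem185b, Lcmt2 and Brd3os overlap.

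Poly(A) signals were present at the annotated ends of most leading members. AATAAA, the hexamer that marks the site of cleavage and poly(A) addition, was searched on the transcript strand in the last 40 bases. It was found in 55.7% of the intronless members and 46.4% of the forms, against 57.4% of 15409 spliced known protein-coding models with a read, and in 0 of 11 mitochondrial-encoded models. With the variant ATTAAA the shares were 67.7% and 60.0%, against 71.1%. Of the 12 leading intronless genes 8 held AATAAA there, and its surroundings are shown for 4 of them that were described above, to show that these annotated ends carry the signal.
Jun: tatcacAATAAAtgtatt
Cebpb: cattttAATAAActtttt
Hspa1a: agagcaAATAAAaa
Mgat2: tgtatcAATAAAggcatt
They lie at chr4:95049060-95049077 (minus strand), chr2:167690382-167690399 (plus strand), chr17:34969190-34969203 (minus strand) and chr12:69186737-69186754 (plus strand).

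Most members with enough reads differed between the libraries, as most known models did. The test took each known model that had 10 or more reads in all and compared its reads with the rest of each library by Fisher's exact test, two-sided, with p-values adjusted after Benjamini and Hochberg over the 8206 such models. At an adjusted p of 0.05, 75.4% of these models were called, 34.7% higher and 40.7% lower in replicate 1. Of the 423 members 166 reached 10 reads, and 69 of them were higher, 45 lower and 52 not called. Among 130 tested intronless models 56 were higher and 36 lower, among 28 forms 5 were higher and 9 lower, and all 8 tested mitochondrial-encoded models were higher. The median log2 ratio of replicate 1 over replicate 2, after adding 1 CPM, was 0.65 for intronless models, −0.45 for forms and 3.85 for mitochondrial-encoded models, against −0.31 for all 8206 models. The share called among the members, 68.7%, was near that of all models and is not particular to them. The test takes reads as independent, and over the same 8206 models edgeR gave a common coefficient of variation of 1.10 between the libraries. TMM and DESeq2 scaling moved the median of all models by more than 0.1, to 0.14 and 0.23; with DESeq2, 3316 models were then higher and 2585 lower against 2847 and 3338 as reported, and with either scaling 6 forms were higher and 6 lower.

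The intronless members of highest ratio were short. The 5 called with the highest log2 ratio were 2310039H08Rik with 120 reads in replicate 1 and 1 in replicate 2, Gm2000 with 118 and 1, Cebpb with 626 and 8, Fam122a, an inhibitor of the phosphatase PP2A, with 39 and 0, and the Myc relative Bmyc with 111 and 1. Adjusted p was 8.1e-24 for 2310039H08Rik, 2.5e-23 for Gm2000, 5.0e-119 for Cebpb, 1.6e-08 for Fam122a and 6.7e-22 for Bmyc (Fisher, Benjamini-Hochberg). Cebpb was 50.3-fold higher in replicate 1 by CPM, and Fam122a at least 8.35-fold, with the 0 reads of replicate 2 set at 3. Their annotated lengths were 445 to 1504 bases.
The 5 called with the lowest ratio were Hspa1a with 18 reads in replicate 1 and 269 in replicate 2, Fam43a with 2 and 39, the MAGE family member Magee1 with 3 and 47, the hedgehog co-receptor Gas1 with 11 and 115, and Fem1a, which selects substrates for a ubiquitin ligase, with 7 and 75. The log2 ratio was −4.48 for Hspa1a (adjusted p 2.0e-84), −3.92 for Gas1 (1.6e-33) and −3.91 for Fem1a (2.9e-22). The annotated length of Gas1 is 1155 bases, and that of the other 4 is 2967 to 6801 bases. Cebpb, Hspa1a, Fam43a, Magee1, Gas1 and Fem1a kept their direction with the length trend removed, as did the remaining 4, which then had ratios of 1.62 to 1.95 and did not pass; with its RefSeq length in the trend Fam122a had 4.45 and passed.

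The ratio fell with transcript length in the members and in spliced models alike. Nuclear members under 1000 bases had a median log2 ratio of 3.18, against 4.01 in 872 known models with 2 or more exons of the same length, and 84% of these members were higher (21 of 25), a share near the 87.5% of those spliced models. From 1000 to 1500 bases the medians were 2.49 in 18 members and 2.96 in 1020 spliced models, and from 1500 to 2000 bases 0.88 in 24 members and 0.81 in 1169 spliced models. From 2000 to 2500 bases they were −1.30 in 20 members and −0.98 in 1124 spliced models. Above that length the medians of the members were nearer to 0: from 3000 to 4000 bases the medians were −0.60 in 23 members and −2.10 in 1412 spliced models, and at 4000 bases or more −1.25 in 29 members and −1.79 in 1155 spliced models. Across models, which share the libraries and are not independent replicates, Spearman's rho of ratio and length was −0.59 over 130 intronless models, −0.23 over 28 forms and −0.67 over 7807 spliced models.
With the running median of the ratio along length taken out, and an exact binomial test in place of Fisher's, 35.5% of all models were called. Of the 166 members 40 were then higher and 27 lower. Among the intronless genes then called were Cebpb (log2 ratio 3.39 after removal), Ndn (3.97, but 0.50 with its shorter RefSeq length in the trend), Hspa1a (−2.69) and H1f0, the replacement linker histone (20 reads in replicate 1 and 81 in replicate 2, −2.18).

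**Figure D3:**
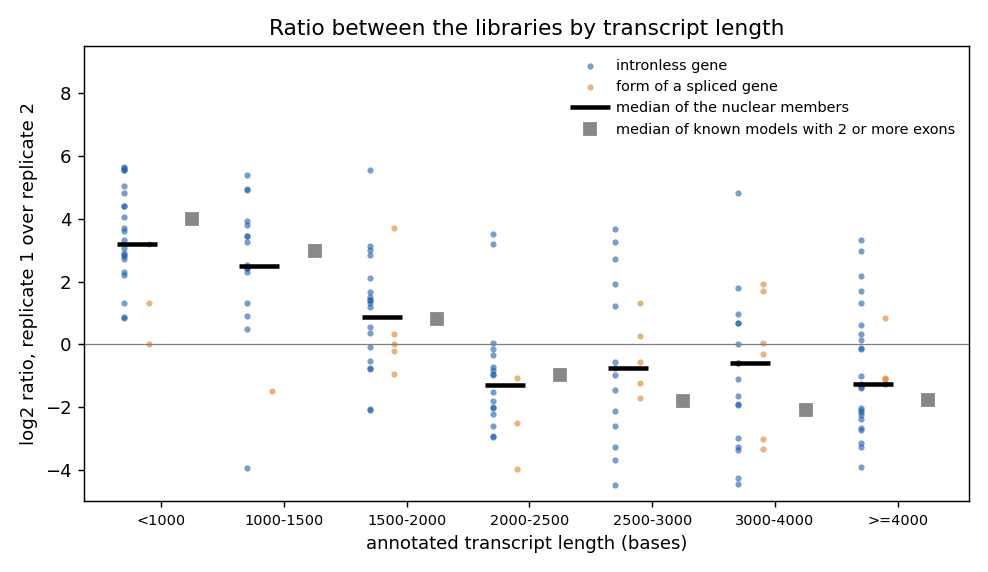
Log2 ratio of replicate 1 over replicate 2 for tested nuclear members in 7 bins of annotated length (points), with the members' median (black bar) and the median of known models with 2 or more exons (grey square). Both medians go from above 2 under 1500 bases to below 0 at 2000 bases and over, and the members' medians lie above the squares from 2500 bases on.

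For several members that stood far from the length trend, the RefSeq gene (GRCm38.p6) and the GENCODE model differ in length. RefSeq held 253 of the 302 intronless models by symbol, at an overlapping position. In 185 the lengths were within 10% of each other, and in 10 the GENCODE model was more than 2 times as long as the RefSeq gene. Sf3b5, a subunit of a spliceosome complex, is annotated with 3841 bases, of which 3280 lie before the coding sequence, and has 734 bases in RefSeq; it had 199 reads in replicate 1 and 4 in replicate 2 (log2 ratio 4.82, adjusted p 3.8e-36). Nsmce3, a subunit of the Smc5/6 complex, is annotated with 5946 bases, 5027 of them after the coding sequence, against 1359 bases in RefSeq, and had 104 reads in replicate 1 and 8 in replicate 2 (log2 ratio 2.98). Ndn is annotated with 3694 bases against 1652 bases in RefSeq, and Sdhaf1, which assembles succinate dehydrogenase, with 2490 against 967 (44 reads in replicate 1 and 2 in replicate 2). All of these were higher in replicate 1.
Gas1 went the other way: its GENCODE model Gas1-202 is the bare coding sequence of 1155 bases, while the RefSeq gene spans 3131 bases. Gas1-202 held 11 reads in replicate 1 and 115 in replicate 2, and the longer model Gas1-201, of 2961 bases, 2 and 0. In all, 13 intronless members and 13 forms are annotated with no bases outside the coding sequence. Over the 120 tested intronless members with both lengths, Spearman's rho with the ratio was −0.63 for RefSeq length and −0.57 for GENCODE length. In 17 of these the lengths differed by more than 1.5 times, with RefSeq shorter in 10 and longer in 7. RefSeq length in the trend did not move all members the same way. The ratio after removal went from 1.73 to 4.90 in Jund and from 1.63 to 4.45 in Fam122a. It went from 3.97 to 0.50 in Ndn and from −7.31 to −1.70 in Gas1. The length of the molecules themselves is not in the deposited tables.

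**Figure D4:**
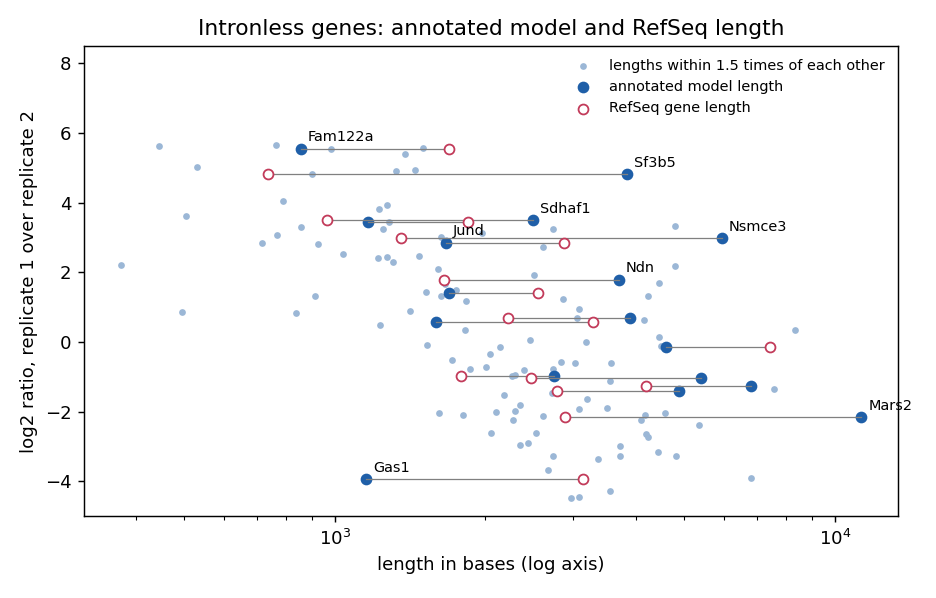
Log2 ratio of replicate 1 over replicate 2 against length for 120 tested intronless members; the 17 whose lengths differ by more than 1.5 times are drawn at their annotated length (filled) and RefSeq length (open), joined by a line. RefSeq moves Sf3b5, Nsmce3, Ndn and Sdhaf1 to the left and Gas1, Jund and Fam122a to the right.

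Copies of spliced genes held a large part of the intronless reads in replicate 1. A near-identical copy was taken as at least 95% identity over at least 80% of the coding sequence of the member, and 83 members had one somewhere in the annotation. Of the intronless members 34 had a near-identical spliced protein-coding gene, and together they took 24.0% of intronless reads in replicate 1 and 4.02% in replicate 2. Of the 34, 11 were tested: 10 were higher in replicate 1, 0 lower and 1 not called, beside 87.5% higher among all known spliced models under 1000 bases. The median length of the 34 was 923.5 bases, against 2329 bases in the other intronless members, and without the length trend the ratios of Rpl10-ps3 (−0.82), Rps27rt (−1.07), Rpl9-ps6 (−1.12) and Rps12-ps3 (−2.88) were negative and those of Sap18b (0.24) and Gm2000 (1.95) positive.
The largest was Rpl10-ps3, a copy of the ribosomal protein gene Rpl10 (chromosome 9, 50344201 to 50344968). It had 926 reads in replicate 1 and 70 in replicate 2, while Rpl10, with 7 exons, had 39 in replicate 1 and 11 in replicate 2 over all its models. The copy thus held 96.0% of the reads of the pair in replicate 1 (94.5 to 97.1) and 86.4% in replicate 2 (77.0 to 93.0), although 740 aligned bases are identical and 6 junctions of Rpl10 fall within them.
In the other 5 pairs described here the copy held the smaller part, except that Rps12-ps3 had slightly more reads than Rps12 in replicate 2. In replicate 1 and replicate 2, Rps27rt had 199 and 27 reads and Rps27 had 412 and 41, so that the copy held 32.6% in replicate 1 and 39.7% in replicate 2. Sap18b had 116 reads in replicate 1 and 4 in replicate 2, and Sap18, a subunit of a histone deacetylase complex, 179 in replicate 1 and 29 in replicate 2. Rps12-ps3 had 66 in replicate 1 and 23 in replicate 2, and Rps12 had 103 in replicate 1 and 20 in replicate 2.
The smaller parts in replicate 1 were held by 2 further copies of ribosomal protein genes, with their reads in replicate 1 and replicate 2: Rpl9-ps6 with 127 and 11 beside Rpl9 with 694 and 32 and Gm2000 with 118 and 1 beside Rpl35 with 2094 and 23. Rpl9-ps6 held 15.5% of the reads of its pair in replicate 1 and 25.6% in replicate 2, and Gm2000 5.33% in replicate 1 and 4.17% in replicate 2. Which of the loci each read came from was not tested, and for pairs with identical letters the counts cannot tell it. Without the members that have a near-identical copy, 108 intronless models were tested. Of these 40 were higher and 33 lower, beside 75.3% of all models called, and their median log2 ratio was 0.03 in place of 0.65. Hspa1a and its neighbour Hspa1b are such a pair without introns: Hspa1b had 1 read in each library.

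**Figure D5:**
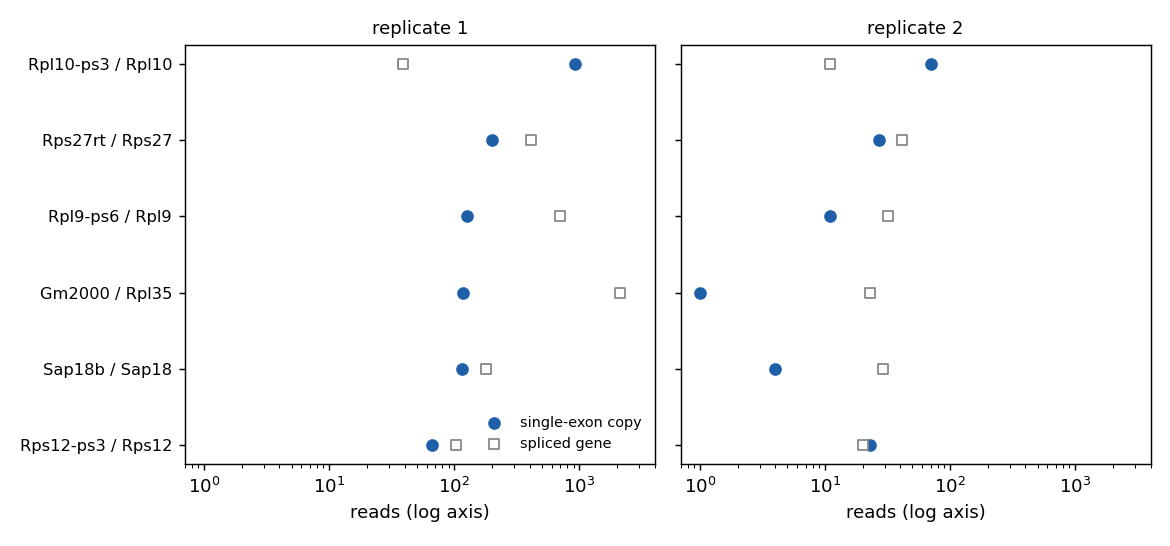
Reads of 6 single-exon copies (filled circles) and of their spliced genes (open squares), on a log axis, in replicate 1 (left) and replicate 2 (right). Rpl10-ps3 lies above Rpl10 in both libraries, Rps12-ps3 and Rps12 change places, and the other 4 copies lie below their spliced genes.

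Among the single-exon forms of spliced genes described here, some were the only known form of their gene read and others held a small part of it. Of the 110 forms, 55 cover an intron of another transcript of the gene, 11 lie inside 1 of its exons and 44 have another position. Junb, an AP-1 subunit (chromosome 8, 84976910 to 84978718), led with 353 reads (416 CPM) in replicate 1 and 180 reads (330.1 CPM) in replicate 2 and was higher (log2 ratio 0.33, adjusted p 0.017), a call that was lost once the length trend was removed (−0.069). H2afj, a histone variant, had 376 reads in replicate 1 and 18 in replicate 2 (log2 ratio 3.71, 3.32 after removal). The 10 most abundant forms held 76.9% of the reads of forms in replicate 1 and 68.4% in replicate 2.
In replicate 1 and replicate 2, Smim10l1, which encodes a small membrane protein, had 115 and 110 reads, Atxn7l3b, a relative of the ataxin family, 114 and 22, and the imprinted Nap1l5, a relative of nucleosome assembly proteins, 42 and 52. In the same order of replicates, Hspa2, an Hsp70 chaperone known from testis, had 33 and 51 reads, the ubiquitin ligase Rnf26 had 20 and 43, and Gspt2, a translation termination factor that is itself a copy of Gspt1, had 4 and 48. Atxn7l3b was higher in replicate 1 and the other 5 were lower; without the length trend the ratios of Smim10l1 (1.48), Hspa2 (0.24) and Rnf26 (0.098) changed sign. The calls of Nap1l5 and Smim10l1 were also lost with TMM scaling (−0.47 and −0.10) and with DESeq2 scaling (−0.38 and −0.012). Rnf26 overlaps Gm49380 on the same strand and had a near-identical copy as defined above, so its counts are uncertain. Cebpd was higher (38 reads in replicate 1 and 6 in replicate 2), and Tmem185b (32 in replicate 1 and 17 in replicate 2), Lcmt2 (21 and 17) and Brd3os (20 and 15) did not pass the test; without the length trend Tmem185b passed (2.32) and Lcmt2 changed sign (1.59), and with TMM scaling the ratios of Lcmt2 (0.13) and Brd3os (0.24) were positive.

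Use of the single-exon form within its gene was compared for genes with at least 20 known reads in each library and at least 2 known models read. The test was Fisher's exact test, two-sided, with Benjamini-Hochberg adjustment over 3820 models, of which 9.11% were called, 4.76% higher and 4.35% lower in replicate 1. It covered 10 member forms and called 2 of them, both lower in replicate 1. Map1lc3b-204, of the autophagy protein LC3B, held 1 of 907 known reads (0.110%, 0.0028 to 0.613) in replicate 1 and 8 of 225 (3.56%, 1.55 to 6.89) in replicate 2 (adjusted p 4.2e-04). B4gat1-202, of a glucuronyltransferase that acts on dystroglycan, held 0 of 54 in replicate 1, which allows up to 6.60%, and 7 of 45 (15.6%, 6.49 to 29.5) in replicate 2 (adjusted p 0.036). B4gat1-202 overlaps another annotated gene on the same strand.
The largest parts in tested genes were those of Nap1l5, at 42 of 43 known reads in replicate 1 and 52 of 52 in replicate 2, and Smim10l1, at 115 of 117 in replicate 1 and 110 of 114 in replicate 2. Junb, Atxn7l3b, Rnf26 and Hspa2 had no other known model with a read, so their single-exon form held 100% in both libraries, with the counts of Rnf26 uncertain as described above. In replicate 1 and replicate 2, Hnrnpf-210, of an RNA-binding protein, held 9.17% and 3.20%, Trappc5-202 held 12.5% and 0%, and Rpp14-202 held 3.03% and 3.33%, none of them called. The forms of Id2, Ginm1 and Mt1 held 1.48% to 2.11% in replicate 1 and had 0 reads in replicate 2, and none was called. In replicate 2 these genes had only 20, 25 and 20 known reads, which allows up to 16.8%, 13.7% and 16.8%.

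Reads of intronless genes were classed as known more often than those of other protein-coding genes. Of all reads assigned to annotated intronless genes, 98.1% (97.8 to 98.4) in replicate 1 and 98.9% (98.5 to 99.2) in replicate 2 were of known models. In protein-coding genes outside this group the shares were 76.3% in replicate 1 and 75.4% in replicate 2. The counting intervals do not overlap in either library, but every read of an intronless gene outside the known class was of a spliced model. All unspliced reads were thus classed as known, and the intervals do not measure how well reads match the annotation. A read without junctions has none that could differ from the annotation, so the classes do not mean the same in the 2 kinds of gene.
Spliced models made up 141 reads of intronless genes in replicate 1 (1.85%) and 44 reads in replicate 2 (1.11%). Rtl8c, a retrotransposon-derived gene, gave 93 of the 141 and 5 of the 44 in 1 structure, with 1 more read in replicate 1 in another, and had 0 known reads, so it is no member; it was picked after its values were seen. Its annotated exon spans 401 bases (chromosome X, 53608032 to 53608432), while the 2-exon model ends at 53608979 and skips 53608425 to 53608685, 261 bases. The first bases of that gap are shown with the last part of the annotated exon, GT in capitals (chrX:53608413-53608432, plus strand).
Rtl8c gap start: ggctacaagaggGTgagctg
Without Rtl8c there were 47 spliced reads in replicate 1 and 39 in replicate 2. Jun had 3 spliced reads in replicate 1 and 4 in replicate 2, each with a gap of 112 or 115 bases that starts at the same base before the coding sequence; the ends of the 112-base gap lie at chr4:95051479-95051498 and chr4:95051367-95051386 (minus strand), with its first and last bases in capitals.
Jun gap start: gcctaccaacGTgagtgcta
Jun gap end: tttgttacAGaagcggggac
Where a gap lay inside the annotated exon and its model had 2 exons, it began with GT and ended with AG in 15 of 16 such reads in replicate 1 and 10 of 23 in replicate 2.

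All mitochondrial-encoded members with 10 reads were higher in replicate 1. The mitochondrial genome carries intronless genes for respiratory chain subunits. The gene mt-Co1, of cytochrome oxidase, had 505 reads in replicate 1 and 14 in replicate 2 (log2 ratio 4.48, adjusted p 1.7e-86). With reads in replicate 1 and replicate 2 in brackets, the complex I genes mt-Nd2 (63 and 2), mt-Nd5 (61 and 0), mt-Nd4 (50 and 2) and mt-Nd1 (26 and 2), and mt-Co3 (34 and 2), mt-Cytb (26 and 1) and mt-Atp6 (21 and 0) followed, all called. Of mt-Co2, mt-Nd3 and mt-Nd6 there were 5, 1 and 1 reads in replicate 1 and 0 in replicate 2, and mt-Nd4l and mt-Atp8 had none. Their lengths are 348 to 1824 bases. Without the length trend 2 of the 8 were still higher, and mt-Co3 and mt-Nd1 turned to negative ratios (−0.67 and −1.16) that did not pass. In all, 5 of the 11 mitochondrial-encoded members, mt-Co1 among them, had a near-identical copy as defined above, so their counts are uncertain. Nuclear copies annotated as pseudogenes match mt-Co3, mt-Atp6 and mt-Co2 at 100% identity and had reads of their own (28, 20 and 13 in replicate 1).

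Groups of known function are described by counts of their single-exon coding models only, against the 75.4% of all models called. Reads of spliced models of these genes are left out. Of 13 listed immediate early genes 7 have a single-exon coding model and 6 were read. Junb, Ier2 and Jund, the third Jun family member (84 reads in replicate 1 and 7 in replicate 2, log2 ratio 2.85), were higher, and Jun was lower, but without the length trend the ratios of Jun, Ier2 and Junb changed sign, to 0.58, −0.59 and −0.069. Ier5 had 7 reads in replicate 1 and 0 in replicate 2, Ier5l 1 and 0, and the single-exon model of Zfp36 had none.
Of 33 intronless or single-exon transcription factor genes, 17 were read and 5 tested, with 3 higher (Cebpb, Cebpd and Sox4); Foxc2 was not called, and its ratio changed sign without the length trend (0.34). Sox4, known from progenitor cells, had 70 reads in replicate 1 and 4 in replicate 2. Cebpa had 2 reads in each library.
Of 18 histone genes with a single-exon coding model 13 were read and 8 tested, with 5 higher, 1 lower (H1f0) and 2 not called; of the 5, Hist3h2a and H2afj kept a positive ratio without the length trend, while Hist2h2aa2 (−0.93), Hist2h2aa1 (−0.32) and Hist1h4h (−1.38) did not. Of the 2 not called, Hist1h1c passed as lower without that trend (−2.53), and H2afx passed as higher with TMM (1.75) and DESeq2 (1.83) scaling but had a negative ratio without the trend (−1.26). Hist2h2aa2, Hist2h2aa1 and Hist1h4h had a near-identical copy as defined above, so their counts are uncertain. Hist2h2aa1 also overlaps Gm20634 on the same strand. Replication-dependent histone RNAs end after a stem-loop in place of a poly(A) tail. Its 16-base sequence was found in 23 members, all of them histone genes, against 4 of 15409 spliced known coding models. Hist2h2aa2 (64 reads in replicate 1 and 5 in replicate 2) has it 35 bases before its end, at chr3:96239780-96239803 (minus strand). Hist3h2a (79 reads in replicate 1 and 5 in replicate 2), which overlaps Trim17 on the same strand, has it 1643 bases before its end, at chr11:58955168-58955191 (plus strand). The stem-loop is in capitals.
Hist2h2aa2: aaaaGGCTCTTTTCAGAGCCaccc
Hist3h2a: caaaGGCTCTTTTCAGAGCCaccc
Of 61 listed receptors coupled to G proteins, 25 have a single-exon coding model, and reads of spliced models are not counted here. Among the 25, 13 were read, with 40 reads in replicate 1 and 62 in replicate 2. Among the 1461 genes outside the sensory receptor families, 28.0% were read. Of the 4 receptors tested, 1 was lower (Fzd1, with 4 reads in replicate 1 and 19 in replicate 2, a call lost without the length trend) and 3 were not called. Adrb1 had 1 read in replicate 1 and 0 in replicate 2 and encodes a receptor for catecholamines. All 3 Hsp70 genes with a single-exon model were read, and both tested, Hspa1a and Hspa2, were lower, Hspa2 only on scales that keep the length trend. Of the imprinted genes, Ndn was higher and Nap1l5 lower (a call lost with TMM and DESeq2 scaling), Mkrn3 had 3 reads in replicate 1 and 4 in replicate 2, Peg12 had 3 and 0, and Magel2 had none. Of 3 small GTPases, Rhob (19 reads in replicate 1 and 98 in replicate 2) and Rap2b (10 and 16) were lower, Rap2b with its call lost under TMM and DESeq2 scaling and a ratio of 0.12 once the length trend was removed. Arl4c (13 reads in replicate 1 and 8 in replicate 2) was not called, and passed without that trend (2.07). The ubiquitin ligase adaptor Klhl9 (20 reads in replicate 1 and 57 in replicate 2) was lower, a call lost without the length trend, and Pcdhb20 (6 and 9) was the only protocadherin with enough reads and did not pass, with a ratio that changed sign without the length trend (1.02).

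Position in the genome set further limits on single members. Of the 423 members, 31 overlap an exon of another gene on the same strand (502 reads in replicate 1 and 132 in replicate 2), and 100 overlap one on the opposite strand. In introns of a host gene lie 46 members on the strand of the host and 33 on the other strand. A single-exon molecule from such a place carries no junction that ties it to the member, and its source was not tested.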

How the data were processed

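Long-read cDNA of mouse adrenal gland total RNA was measured in 2 libraries. The authors aligned the reads to mm10 with the GENCODE M21 annotation and deposited whole-read counts per transcript model, with unannotated models credited to TALON, per the file headers and the text deposited with them; no source used here names the aligner, read correction or sequencing platform. The tables as deposited list only models with at least 1 read. From them, CPM were computed on the total of each library (848782 and 545229 reads), with a pseudocount of 1 CPM on the log2 scale. Differences between the libraries were tested with Fisher's exact test and Benjamini-Hochberg adjustment over all known models with at least 10 reads (SciPy 1.17.1); edgeR 4.0.16 and DESeq2 1.42.0 gave scaling factors. The length trend was the running median over 150 models on each side. Copies were found with blastn 2.17.0 among GENCODE M21 transcripts, and lengths were compared with RefSeq (GRCm38.p6). The scripts were tested on simulated data. Named members were, among intronless genes and forms, the 12 of highest mean CPM and the 5 called with the highest and the 5 with the lowest ratio, the mitochondrial-encoded genes, the listed families, and the forms with the largest part of their gene; other names were chosen after their values were seen. The members and lists were chosen with earlier results of these data known. Some results are not reported here.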

Additional observations from a re-analysis of the deposited data

How the results depend on the processing

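No paired analysis was possible because there is 1 group. With 1 library left out there is no test between libraries; the members' share of reads was then 0.870% to 1.14%, that of intronless genes 0.716% to 0.879%, that of forms 0.1497% to 0.170%, and the known share of intronless reads 98.1% to 98.9%. Over known reads only, the mean shares were 1.39% (all members), 1.10% (intronless) and 0.221% (forms); without members that have a near-identical copy they were 0.783% and 0.622% (all, intronless), and 0.0961% for forms when a gene counted as intronless by its protein-coding transcripts alone. Removing the length trend left 40 members higher and 27 lower, of which 29 and 23 were intronless, 9 and 4 forms, and 2 and 0 mitochondrial-encoded; with RefSeq lengths these were 38 and 28, 27 and 24, 9 and 4, and 2 and 0. Tested by gene, 17 of 67 genes of forms were higher and 18 lower, beside 67.3% called of 10690 genes tested in all. Without near-identical copies all 5 tested mitochondrial-encoded models were higher, beside 75.3% of all models called. With at least 50 known reads per gene, 1 of 3 tested forms was called by use, beside 13.4% of 1570 models. Without Rtl8c, known models made up a mean of 99.2% of intronless reads. Ratios that changed sign with the length trend removed were those of Jun (0.58), Rpl10-ps3 (−0.82), Tspyl1 (0.16), Rps27rt (−1.07), Ier2 (−0.59), Hist2h2aa2 (−0.93), Hist2h2aa1 (−0.32), Rap2b (0.12, and 0.70 with RefSeq length), Hist1h4h (−1.38), mt-Co3 (−0.67), mt-Nd1 (−1.16), Junb (−0.069), Smim10l1 (1.48), Hspa2 (0.24), Rnf26 (0.098), Lcmt2 (1.59) and Gm9803 (−0.74), and, called under neither setting, Fzd9 (0.25), Lpar6 (0.70, and 0.50 with RefSeq length), Pcdhb20 (1.02), H2afx (−1.26), Foxc2 (0.34) and Gpr27 (0.62, and 0.99 with RefSeq length). With its RefSeq length in the trend Tspyl1 kept a negative ratio (−0.14) but did not pass. Lcmt2 and Brd3os also changed sign with TMM scaling (0.13 and 0.24) and with DESeq2 scaling (0.22 and 0.33). The cause was not tested. Over all alternatives of the 64 named members tested, 377 values kept direction and call, 26 lost the call, 5 gained it and 30 changed sign. The alternatives with near-identical copies, RefSeq lengths and Rtl8c were added after seeing the data. Depth limits members of 1 to 9 reads, which were not tested.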
